A study of Mus musculus with 2 samples.

Results

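Chemokine genes and the gene for a macrophage growth factor were followed across the cells of overloaded and control mouse plantaris muscle. The 10 genes were given by name and not by their values, and they are Cxcl1, Cxcl2, Cxcl5, Cxcl12, Cxcl14, Ccl2, Ccl7, Ccl11, Ccl19 and Csf1, out of 32285 genes in the count matrices. All 10 were detected in both libraries. Both libraries came from Pax7rtTA; TRE-H2B-GFP mice 26 weeks old, in which the Pax7 locus drives the tetracycline transactivator and doxycycline switches on a histone-bound GFP. In both conditions the mice had drunk doxycycline at 2.0 mg/ml with 2% sucrose for 2 weeks. In the mechanical overload (MOV) condition the muscles that share the work of the plantaris were partly removed, in the sham condition they were not, and plantaris was taken 5 days after surgery. The labels speak of 1 mouse and the study's methods of several mice per condition, and how these map onto the libraries is not given in the sources used here. The sort is described by surface markers (VCAM-positive, and negative for CD31, CD45 and SCA1) in the sample protocol and by GFP in the design text. With 1 sham and 1 MOV library there was no replicate of either condition, so no test was made and every interval given here is a 95% interval for counting error only.

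Chemokines are small secreted proteins that bind to glycosaminoglycans on cell surfaces and matrix and draw in cells that carry the matching G protein-coupled receptor. CXCL1, CXCL2 and CXCL5 act on CXCR2 and are known as neutrophil attractants. CCL2 and CCL7 act on CCR2 and bring monocytes out of the blood, CCL11 acts on CCR3 of eosinophils, and CCL19 acts on CCR7 of dendritic cells and T cells. CXCL12 acts on CXCR4 and is bound and cleared by ACKR3, and CXCL14 is a chemokine made by fibroblasts and epithelia. CSF1 is not a chemokine but a growth factor that keeps monocytes and macrophages alive through the receptor CSF1R. In injured muscle, muscle stem cells (MuSCs), fibro-adipogenic cells that carry Pdgfra and resident macrophages are all known sources of such signals.

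Unique molecular identifiers (UMIs), which count captured transcripts, were summed per group of cells and given as CPM, in which the UMIs of a gene are scaled to the same total in every group. Since each transcript is counted at its 3′ end irrespective of its length, CPM of different genes are set side by side without a length correction. Other differences between genes in capture and mapping were not measured. Groups were drawn from marker genes, none of which is a chemokine, a chemokine receptor or Csf1. The sham library held 7302661 UMIs in 1100 cells, of which 738 were kept, and the MOV library held 88498487 UMIs in 3854 cells, of which 3060 were kept. Although the label of both libraries is muscle stem cells, only 15.3% of the kept sham cells and 47.8% of the kept MOV cells met the MuSC markers, and 500 of the 738 sham droplets carried mainly muscle fibre RNA. The MuSC groups held 113 sham and 1463 MOV cells, the Pdgfra groups 27 and 411, and the myocyte groups (Myog and other early differentiation genes) 1 and 187. Vascular groups, which pool cells with endothelial and with mural markers, held 10 and 56. Myeloid groups held 2 and 78 cells, and Lrrc15 fibroblasts, which are Pdgfra cells with at least 2 UMIs of Lrrc15, numbered 1 and 138. Sham myocytes, Lrrc15 fibroblasts and myeloid cells were therefore not compared. Defining markers held within these groups, with Pax7 at 133 CPM in sham MuSCs and 0 UMIs in sham Pdgfra cells, and Pdgfra at 403 CPM in sham Pdgfra cells and 0 UMIs in sham MuSCs. In MOV, Pax7 stood at 79.2 CPM in MuSCs and 0.7 CPM in Pdgfra cells, and Pdgfra at 0.9 and 133 CPM. Depth differed between the libraries, with a median of 7951 UMIs per sham MuSC and 22068 per MOV MuSC. Cell barcodes found in both libraries numbered 44, and in 39 of them the MOV copy was the shallower one. Of these, 8 sham and 4 MOV barcodes were MuSCs and 2 sham and 1 MOV barcodes were Pdgfra cells.

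The 10 genes lie on 6 chromosomes of the mouse genome (GRCm38, the build of the files). Cxcl5, Cxcl1 and Cxcl2 share a stretch of 146579 bases on chromosome 5 (90759360 to 90905938), and Ccl2, Ccl7 and Ccl11 share 27385 bases on chromosome 11 (82035571 to 82062955), in both cases on the plus strand. Cxcl12 lies on chromosome 6 (117168535 to 117181367, plus strand) and Cxcl14 on chromosome 13 (56288643 to 56296551, minus strand). Ccl19 lies on chromosome 4 (42754525 to 42756577, minus strand) and Csf1 on chromosome 3 (107741048 to 107760469, minus strand). The annotation holds a second Ccl19 copy, which had 0 UMIs in both libraries, so that reads from the copies, if shared, could not be told apart here.

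Cxcl1 and Cxcl2 are neighbours, and both had lower levels in MOV than in sham MuSCs (values below), so the bases just before their starts are shown together with those of Cxcl14, a gene with a different pattern. Promoter entries of RefSeq on GRCm38.p6 were matched for 6 of the 10 genes. Each sequence below holds the 250 bases before the RefSeq start, with matches to GGGNNNNNCC on either strand in capitals, a loose form of the site bound by NF-kB. Overlapping matches run together.
Cxcl1 (chr5:90890995-90891244, plus strand): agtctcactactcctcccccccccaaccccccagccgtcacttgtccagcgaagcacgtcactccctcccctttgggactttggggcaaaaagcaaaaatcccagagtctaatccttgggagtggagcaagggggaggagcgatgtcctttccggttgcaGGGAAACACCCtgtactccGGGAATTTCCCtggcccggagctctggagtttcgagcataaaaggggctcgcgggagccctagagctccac
Cxcl2 (chr5:90903649-90903898, plus strand): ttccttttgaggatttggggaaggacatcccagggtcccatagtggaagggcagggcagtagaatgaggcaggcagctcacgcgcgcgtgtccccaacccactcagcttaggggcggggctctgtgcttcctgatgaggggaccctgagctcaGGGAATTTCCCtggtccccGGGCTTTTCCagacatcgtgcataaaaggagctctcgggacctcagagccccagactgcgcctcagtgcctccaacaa
Cxcl14 (chr13:56296552-56296801, minus strand): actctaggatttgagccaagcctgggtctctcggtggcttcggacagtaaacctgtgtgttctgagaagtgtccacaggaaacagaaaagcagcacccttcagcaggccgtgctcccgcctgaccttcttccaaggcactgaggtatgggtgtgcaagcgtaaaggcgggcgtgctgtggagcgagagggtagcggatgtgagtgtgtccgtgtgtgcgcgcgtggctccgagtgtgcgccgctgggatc
The longest run of bases that Cxcl1 and Cxcl2 shared was GGGAATTTCCCTGG, which began 71 bases before the RefSeq start of Cxcl1 and 97 bases before that of Cxcl2. The GENCODE starts, used for the positions above, differ from these, and counted from them the run began 67 and 69 bases upstream. Among 32851 promoter entries of the same length, 2 held this run on either strand (0.00609%), and they were those of Cxcl1 and Cxcl2. The first 10 bases of the run, GGGAATTTCC, occurred in 28 entries (0.0852%). The loose form GGGNNNNNCC was present in 5 of the 6 matched members (not Cxcl14) and also in 45.8% of all entries, so its presence does not set the members apart. The AP-1 form TGANTCA was in 0 of the 6 and in 6.75% of all entries. These runs were chosen after the sequences were seen, and a match is a description of letters, not a binding site.

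The plot of levels by group shows the 10 genes side by side. In sham muscle Cxcl1 was the most abundant of the 10 in both MuSCs and Pdgfra cells. In MOV muscle the leading gene was Ccl2 in MuSCs, Ccl2 in Pdgfra cells, Cxcl2 in myeloid cells and Ccl2 in vascular cells. In 500 sham fibre droplets Cxcl1 stood at 0.97 CPM (3 UMIs) and 5 of the 10 genes had 0 UMIs. In 70 MOV Schwann cells the levels were 125 CPM for Cxcl1, 118 for Ccl2, 178 for Cxcl14 and 33.4 for Cxcl12, and Ccl19 had 0 UMIs. Schwann cells were shallower than MuSCs (median 7609 against 22068 UMIs), so CPM of these groups give no common measure of RNA free in the suspension. For that, members were set against Dcn, a proteoglycan gene of fibroblasts, since RNA from one source keeps its genes in one ratio. Dcn was itself one of the markers of the Pdgfra group. Cells with 30 or more UMIs of those markers per 10000 were not taken as MuSCs. The grouping therefore limits Dcn in MuSCs and raises it in Pdgfra cells, so these ratios cannot settle the source of the RNA. MOV MuSCs held 118 Cxcl14 UMIs per 1000 Dcn UMIs, below the 366 of Pdgfra cells, and Cxcl14 stood between 12.3 and 21.3 CPM in all MuSC states and in myocytes, with 16.7 CPM in vascular cells. Other MOV groups outside the Pdgfra cells stood higher, with Cxcl14 at 180 CPM in tenocytes, 178 CPM in Schwann cells and 45.5 CPM in myeloid cells. The part of free RNA in the Cxcl14 of these groups, MuSCs and myocytes was not tested. For that reason no expression of Cxcl14 in MuSCs and myocytes is read from these levels. For Cxcl12 the MOV MuSCs held 263 UMIs per 1000 Dcn UMIs against 58.6 in Pdgfra cells. Dcn was not particular to Pdgfra cells, with 7651 CPM in MOV tenocytes against 3642 CPM in MOV Pdgfra cells. Cxcl12 stood between 24.4 and 47.8 CPM in the MOV MuSC states, at 22.2 CPM in myeloid cells and 11.9 CPM in myocytes. The part of free RNA in the Cxcl12 of MuSCs, from vascular or other cells, was not tested.

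**Figure D1:**
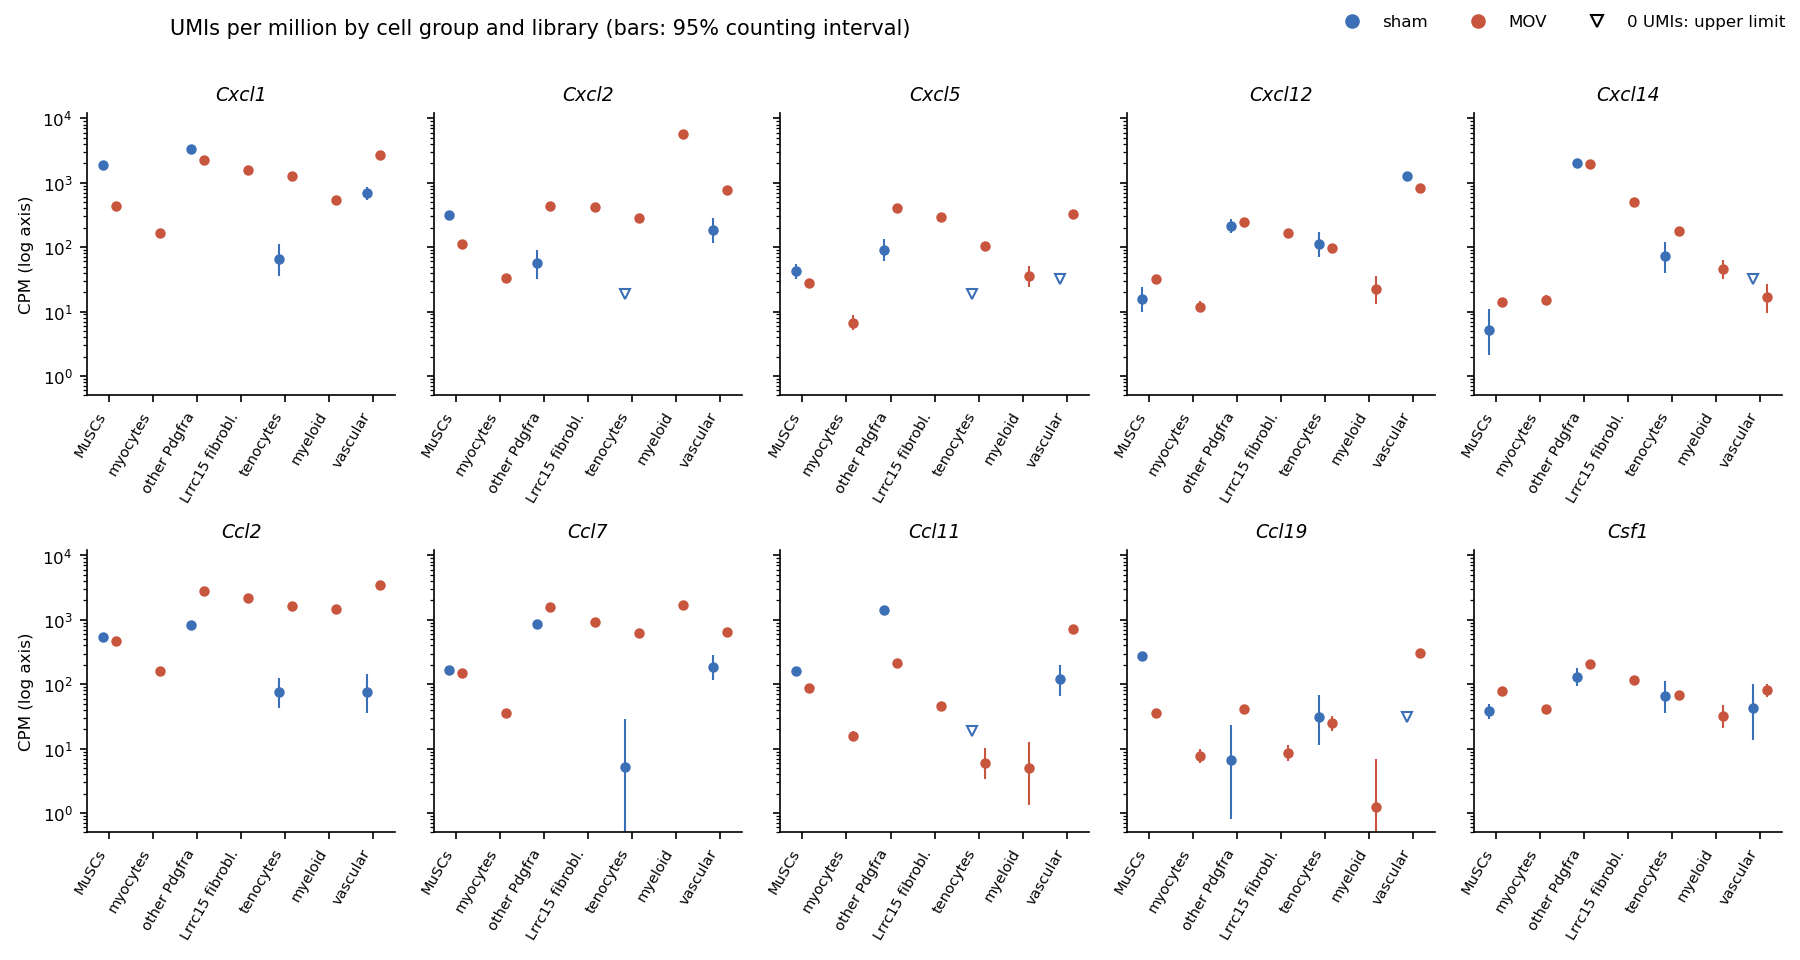
Level of each gene in CPM (log axis) by marker-defined group, for the sham and the MOV library, in groups of at least 10 cells. Bars are 95% Poisson intervals for counting error, and triangles mark groups with 0 UMIs at their upper limit. Cxcl14 stands apart in the other Pdgfra cells, at 2050 CPM in sham and 1924 CPM in MOV, with 507 CPM in MOV Lrrc15 fibroblasts.

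Cxcl1, a ligand of CXCR2, stood at 1893 CPM in sham MuSCs (1820 to 1969, 2528 UMIs) and at 436 CPM in MOV MuSCs (429 to 442, 18740 UMIs). Pdgfra cells held 3168 CPM in sham and 1999 CPM in MOV, and MOV vascular cells held 2667 CPM. The MOV order ran from vascular cells to other Pdgfra cells (2296 CPM), Lrrc15 fibroblasts (1582 CPM), tenocytes (1293 CPM) and immediate-early-high, interferon-high, quiescence-marker and matrix MuSCs (1125 to 651 CPM). Myeloid cells (545 CPM) came next, before S-phase, remaining and G2/M MuSCs (399 to 330 CPM) and myocytes (163 CPM). Down to the myocytes, neighbours in that order were apart by more than counting error except interferon-high and quiescence-marker MuSCs (832 and 820 CPM) and S-phase and remaining MuSCs (399 and 374 CPM). Myocytes and Schwann cells (125 CPM) had intervals that overlapped by a narrow margin. The sham transcripts were unevenly spread over cells. A UMI of Cxcl1 was found in 79 of 113 sham MuSCs, the top cell alone held 428 UMIs (16.9% of the group), and 10 cells held 56.0%.

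Cxcl2, the neighbour of Cxcl1 and a ligand of the same receptor, stood at 319 CPM in sham MuSCs and 114 CPM in MOV MuSCs. In sham its UMIs came from 22 of 113 MuSCs, and 10 of these held 89.2%. In Pdgfra cells the order of the libraries was the other way round, with 58.8 CPM in sham (35.9 to 90.8, 20 UMIs, of which 14 lay in 1 cell) and 435 CPM in MOV (425 to 446). Myeloid cells in MOV had the highest level, at 5742 CPM (5578 to 5909), above the next group, vascular cells at 782 CPM. Only 78 cells gave this level, but 62 of them held a UMI of Cxcl2.

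Cxcl5, also a CXCR2 ligand, was scarce in sham, with 41.9 CPM in MuSCs (56 UMIs in 5 cells) and 82.3 CPM in Pdgfra cells (28 UMIs in 3 cells). In MOV it stood at 363 CPM in Pdgfra cells, 329 CPM in vascular cells, 104 CPM in tenocytes and 28.1 CPM in MuSCs. The gene was thus mainly one of the MOV stroma, where 190 of 411 Pdgfra cells held a UMI and 10 cells held 41.6% of all its UMIs.

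Ccl2, a monocyte attractant, stood at 548 CPM in sham MuSCs (508 to 589) and 476 CPM in MOV MuSCs (470 to 483). In Pdgfra cells the levels were 758 CPM in sham (669 to 857, 258 UMIs) and 2541 CPM in MOV (2515 to 2566). MOV vascular cells were above both at 3504 CPM, though 10 of the 56 cells held 84.9% of these UMIs. Ccl7, which lies next to Ccl2 and shares its receptor, stood at 164 CPM in sham and 151 CPM in MOV MuSCs, with intervals that overlapped (143 to 187 and 147 to 155). Its levels in Pdgfra cells were 791 CPM in sham and 1307 CPM in MOV, and the MOV myeloid cells stood highest at 1673 CPM. Myeloid cells and other Pdgfra cells (1567 CPM) were neighbours in that order, and their intervals overlapped by a narrow margin.

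Ccl11, a chemokine for eosinophils that lies in the same cluster, followed neither neighbour. It stood at 163 CPM in sham MuSCs and 87.1 CPM in MOV MuSCs, and at 1264 CPM in sham Pdgfra cells (1147 to 1389, 430 UMIs) and 142 CPM in MOV Pdgfra cells (136 to 149). Vascular cells were the highest MOV group at 724 CPM. In sham MuSCs 14 cells held all Ccl11 UMIs, and 10 of them held 98.2%, whereas 21 of 27 sham Pdgfra cells held the gene.

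Ccl19, a ligand of CCR7, was in sham a gene of MuSCs. Of its 391 UMIs in kept sham cells 95.1% lay in MuSCs, where it stood at 279 CPM (251 to 308), against 5.88 CPM in Pdgfra cells (0.712 to 21.2, 2 UMIs) and 0 UMIs in 500 fibre droplets. Unlike Cxcl1 it was spread evenly, with a UMI in 74 of 113 cells and at most 16 UMIs in any of them. MOV MuSCs stood at 36.4 CPM and MOV Pdgfra cells at 28.0 CPM, and MuSCs then held 54.2% of the UMIs in kept cells. MOV vascular cells were highest at 308 CPM, with 97.6% of these UMIs in 10 cells.

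Cxcl12, the CXCR4 ligand, was highest in vascular cells, at 1264 CPM in sham (1068 to 1485, 10 cells) and 822 CPM in MOV (766 to 882, 56 cells). Pdgfra cells stood at 220 CPM in sham and 214 CPM in MOV, and MuSCs at 15.7 CPM (21 UMIs) and 31.6 CPM. Cxcl14 was a gene of Pdgfra cells, which held 91.4% of its kept sham UMIs and 77.3% of its kept MOV UMIs. The levels were 1840 CPM in sham (626 UMIs, of which 47.3% lay in 1 cell) and 1335 CPM in MOV, where the top cell held 3.42%. In MuSCs only 7 sham UMIs and 14.2 CPM in MOV were found.

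Csf1, the macrophage growth factor, was present at low levels in most groups. It stood at 38.2 CPM in sham MuSCs (28.4 to 50.2, 51 UMIs) and 78.5 CPM in MOV MuSCs (75.9 to 81.2), at 121 CPM in sham Pdgfra cells and 168 CPM in MOV Pdgfra cells. No MOV cell held more than 59 UMIs. Tenocytes held 67.6 CPM, myocytes 41.3 CPM and myeloid cells, which respond to it, 32.0 CPM, and the intervals of the last pair overlapped (37.1 to 45.8 and 20.9 to 46.9).

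The first question was how MOV and sham MuSCs differed. A member was counted when its level differed at least 2-fold with at least 20 UMIs in both groups together. In all MuSCs 3 of 10 members were counted as higher in MOV, where 14.5% of 12978 genes were, and 3 as lower, where 9.89% of genes were. The median log2 ratio was -0.39 over the members and 0.27 over all these genes. The lower ones were Ccl19 (log2 ratio -2.94, -3.10 to -2.77), Cxcl1 (-2.12, -2.18 to -2.06) and Cxcl2 (-1.49, -1.63 to -1.34). The higher ones were Cxcl14 (1.44, from 7 sham UMIs), Csf1 (1.04, 0.64 to 1.47) and Cxcl12 (1.01, 0.39 to 1.71). The part of free RNA in Cxcl14 and Cxcl12 was not tested, and Cxcl14 is not read as expression in MuSCs. Ccl11 (-0.90), Cxcl5 (-0.58), Ccl2 (-0.20) and Ccl7 (-0.12) differed by less than 2-fold. Without the barcodes found in both libraries the ratios were -3.35 for Ccl19, -2.53 for Cxcl1, -1.90 for Cxcl2 and 1.42 for Csf1, and Ccl11 (-1.31) and Cxcl5 (-1.01) were then also past 2-fold. With factors by the trimmed mean of M-values (TMM) or by the median of ratios, Csf1 and Cxcl12 were no longer past 2-fold.

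The make-up of the MuSC groups moved with the condition. States were assigned in the order quiescence, matrix, immediate-early, interferon, S phase and G2/M, and a cell that met several took the last. Quiescence-marker MuSCs, with markers such as Calcr and Chrdl2 and none of the later states, numbered 69 of 113 in sham and 249 of 1463 in MOV. S-phase and G2/M markers defined 9 and 697. Within the quiescence-marker MuSCs, which held none of the barcodes found in both libraries, 2 members were counted as higher, where 19.6% of 8502 genes were, and 3 as lower, where 6.55% were. The members' median was 0.14 beside 0.26 over all these genes. Cxcl1 stood at 3284 CPM in sham (3142 to 3432) and 820 CPM in MOV (790 to 851), a log2 ratio between -2.08 and -1.92. For Cxcl2 the levels were 584 and 180 CPM (-1.70), and for Ccl19 they were 379 and 167 CPM (-1.18, -1.40 to -0.95). Thus the 3 genes that were lower over all MuSCs were also lower among quiescence-marker MuSCs, with a smaller ratio for Ccl19. That of Ccl19 was within 2-fold under 4 of 17 other settings, at its weakest -0.90, and that of Cxcl2 under 1 (-0.97). The monocyte attractants had higher point values in MOV, 283 against 153 CPM for Ccl7 (0.89, 0.58 to 1.21) and 765 against 593 CPM for Ccl2 (0.37, 0.21 to 0.53), each under 2-fold. Ccl11 was at 281 and 300 CPM, within counting error (-0.09, -0.32 to 0.14). Cxcl12 (1.51, 7 sham UMIs) and Cxcl14 (1.36, -0.07 to 3.28, 4 sham UMIs) were counted as higher on few transcripts, and Csf1 (0.90) and Cxcl5 (-0.25) were under 2-fold. Dissociation-linked immediate-early genes moved with some of these levels and are described below.

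In Pdgfra cells 4 members were counted as higher in MOV than in sham, where 11.5% of 11830 genes were, and 1 as lower, where 16.3% were. The median was 0.60 over the members and 0.07 over all these genes. The higher ones were Cxcl2 (2.89, 2.26 to 3.60), Ccl19 (2.25, 0.39 to 5.30, from 2 sham UMIs), Cxcl5 (2.14, 1.61 to 2.73, from 28) and Ccl2 (1.74, 1.57 to 1.93). Ccl11 was lower (-3.15, from 430 sham UMIs), and this was the largest of the differences between the libraries that rested on over 100 UMIs in each. The others were under 2-fold, with Ccl7 at 0.72, Csf1 at 0.48, Cxcl12 at -0.05, Cxcl14 at -0.46 and Cxcl1 at -0.66. All sham values here come from 27 cells. Without the barcodes found in both libraries Ccl11 stood at -3.60, Cxcl2 at 2.68, Cxcl5 at 2.59 and Ccl2 at 1.34, and Cxcl1 was then past 2-fold (-1.02). Cxcl2 was at 0.62 with the mitochondrial limit at 20% or dropped, and Ccl2 at 0.88 with cells thinned to 2000 UMIs and 0.83 as a mean over cells, so neither was past 2-fold there. The direction of Cxcl14 rested on few sham cells, since it stood at 0.34 without the top cell of each group and at 2.35 without cells rich in immediate-early genes. Ccl11 was past 2-fold under all 17 other settings, from -3.60 to -2.03. Since sham had 1 Lrrc15 fibroblast and MOV 138, the mix of Pdgfra cells as grouped here also differed between the libraries. That group was set by a fixed count of 2 Lrrc15 UMIs, and depth differed, with a median of 11341 UMIs per sham and 36512 per MOV Pdgfra cell. The part of depth in this mix was not tested.

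**Figure D2:**
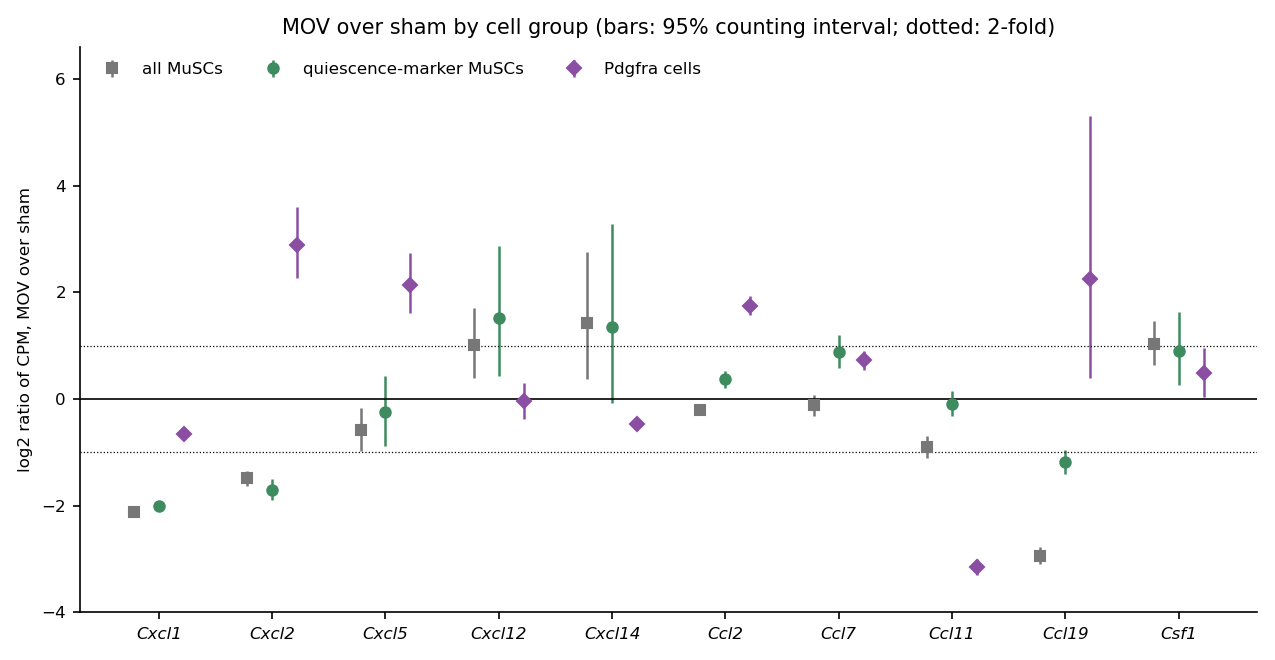
Log2 ratio of MOV over sham for each gene in all MuSCs, quiescence-marker MuSCs and Pdgfra cells, with exact 95% intervals for counting error and dotted lines at 2-fold. Cxcl1 and Cxcl2 lie below the line of no difference in both MuSC groups. In Pdgfra cells Cxcl2 lies above it at 2.89 and Ccl11 below it at -3.15.

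The next comparison set Pdgfra cells against MuSCs of the same library. In sham 5 members were counted as higher in Pdgfra cells, where 18.4% of 6782 genes were, and 2 as lower, where 18.4% were, with a members' median of 1.31 beside -0.06 over all genes. The higher ones were Cxcl14 (8.45), Cxcl12 (3.81), Ccl11 (2.96), Ccl7 (2.27) and Csf1 (1.66). The lower ones were Ccl19 (-5.57, -8.62 to -3.70, from 2 UMIs in Pdgfra cells) and Cxcl2 (-2.44). Cxcl1 (0.74), Cxcl5 (0.97) and Ccl2 (0.47) were within 2-fold. The lower level of Cxcl2 in sham Pdgfra cells was lost with the mitochondrial limit at 20% or dropped (-0.11 at its weakest), and Ccl19 stayed past 2-fold under all 17 other settings. Csf1 was at 0.99 without immediate-early-high cells, and had under 20 UMIs with thinning. In MOV 8 members were counted as higher in Pdgfra cells, where 18.9% of 13816 genes were, and 0 as lower, where 15.7% were, and the median was 2.31 beside -0.11. They were Cxcl14 (6.56), Cxcl5 (3.69), Ccl7 (3.11), Cxcl12 (2.76), Ccl2 (2.42), Cxcl1 (2.20), Cxcl2 (1.93) and Csf1 (1.10). Ccl11 (0.71) and Ccl19 (-0.38) were within 2-fold. The mix of MuSC states differs between the libraries as given above.

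Within MOV Pdgfra cells, the 138 Lrrc15 fibroblasts (Lrrc15 marks matrix-producing, activated fibroblasts) were set against the 273 other Pdgfra cells. None of the members was counted as higher, where 2.41% of 11765 genes were, and 3 were lower, where 5.64% were, with medians of -0.67 and -0.02. Ccl19 stood at 8.59 against 41.9 CPM (-2.29), Ccl11 at 46.0 against 211 CPM (-2.20) and Cxcl14 at 507 against 1924 CPM (-1.92). Ccl11 and Cxcl14, both abundant in sham Pdgfra cells, were thus lower in the Lrrc15 fibroblasts, while the CXCR2 and CCR2 ligands were within 2-fold, from -0.05 for Cxcl2 (426 and 442 CPM, within counting error) to -0.73 for Ccl7. Csf1 was at 116 against 205 CPM (-0.82). Depth was 44652 UMIs per Lrrc15 fibroblast and 31254 per other Pdgfra cell at the median.

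Among MOV MuSCs the states differed most in Ccl19 and Ccl11. Cycling cells, 697 with S-phase or G2/M markers, were compared with the 249 quiescence-marker cells. None of the members was higher, where 16.0% of 12395 genes were, and 6 were lower, where 8.87% were, with medians of -1.08 and 0.09. Ccl19 stood at 16.8 against 167 CPM (-3.32, -3.50 to -3.14) and Ccl11 at 41.0 against 281 CPM (-2.78, -2.90 to -2.65). Cxcl1 (335 against 820 CPM, -1.29), Ccl7 (118 against 283 CPM, -1.27), Ccl2 (361 against 765 CPM, -1.08) and Cxcl2 (85.5 against 180 CPM, -1.08) were lower by a smaller amount. Ccl2 was within 2-fold under 3 of 17 other settings, among them thinning, the mean over cells and leaving out the deepest 5% of cells (-0.86 at its weakest), and Cxcl2 under 2 of these (-0.68 at its weakest). The other 4 members were under 2-fold. Csf1 stood at 72.0 against 64.7 CPM (0.16, -0.05 to 0.36) and Cxcl12 at 29.0 against 32.9 CPM (-0.18, -0.47 to 0.11), both within counting error, and Cxcl5 (-0.56) and Cxcl14 (-0.43) had lower point values. Cycling cells were the deeper ones, with a median of 32337 UMIs against 13219, and CPM sets each level against the total of the same cells.

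Immediate-early-high MuSCs, 62 cells rich in Fos, Jun and Egr1, which rise within minutes of stimulation or tissue dissociation, were also set against the quiescence-marker cells. Cxcl2 was counted as higher (399 against 180 CPM, 1.15), 1 of 10 where 8.41% of 8964 genes were. Ccl19 (68.2 against 167 CPM, -1.30) and Cxcl5 (-1.06, from 18 UMIs) were lower, 2 of 10 where 3.69% were, and the median was 0.10 over the members and over all genes. The Cxcl2 value rests on few cells, since 1 cell held 30.5% of its 433 UMIs, and without the top cell it was within 2-fold. Cxcl1 stood at 1125 CPM and Ccl2 at 1030 CPM in these cells, each the highest level of the MOV MuSC states. The matrix state, 198 cells with Gpc3, Islr, Mgp, Fbln2 and Col3a1, had 0 members higher, where 4.41% of 9900 genes were, and 1 lower, where 3.05% were, with medians of -0.22 and 0.04. The lower one was Ccl19 (57.9 against 167 CPM, -1.53). Csf1 was at 110 CPM there (0.77, 0.53 to 1.01) and Ccl11 at 252 CPM, close to the 281 CPM of the quiescence-marker cells. Interferon-high MuSCs, 45 cells, held Cxcl1 at 832 CPM, Ccl2 at 885 CPM and Ccl19 at 123 CPM. State limits were not sharp, since 408 of 1463 MOV MuSCs lay within 1.5-fold of the quiescence limit.

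**Figure D3:**
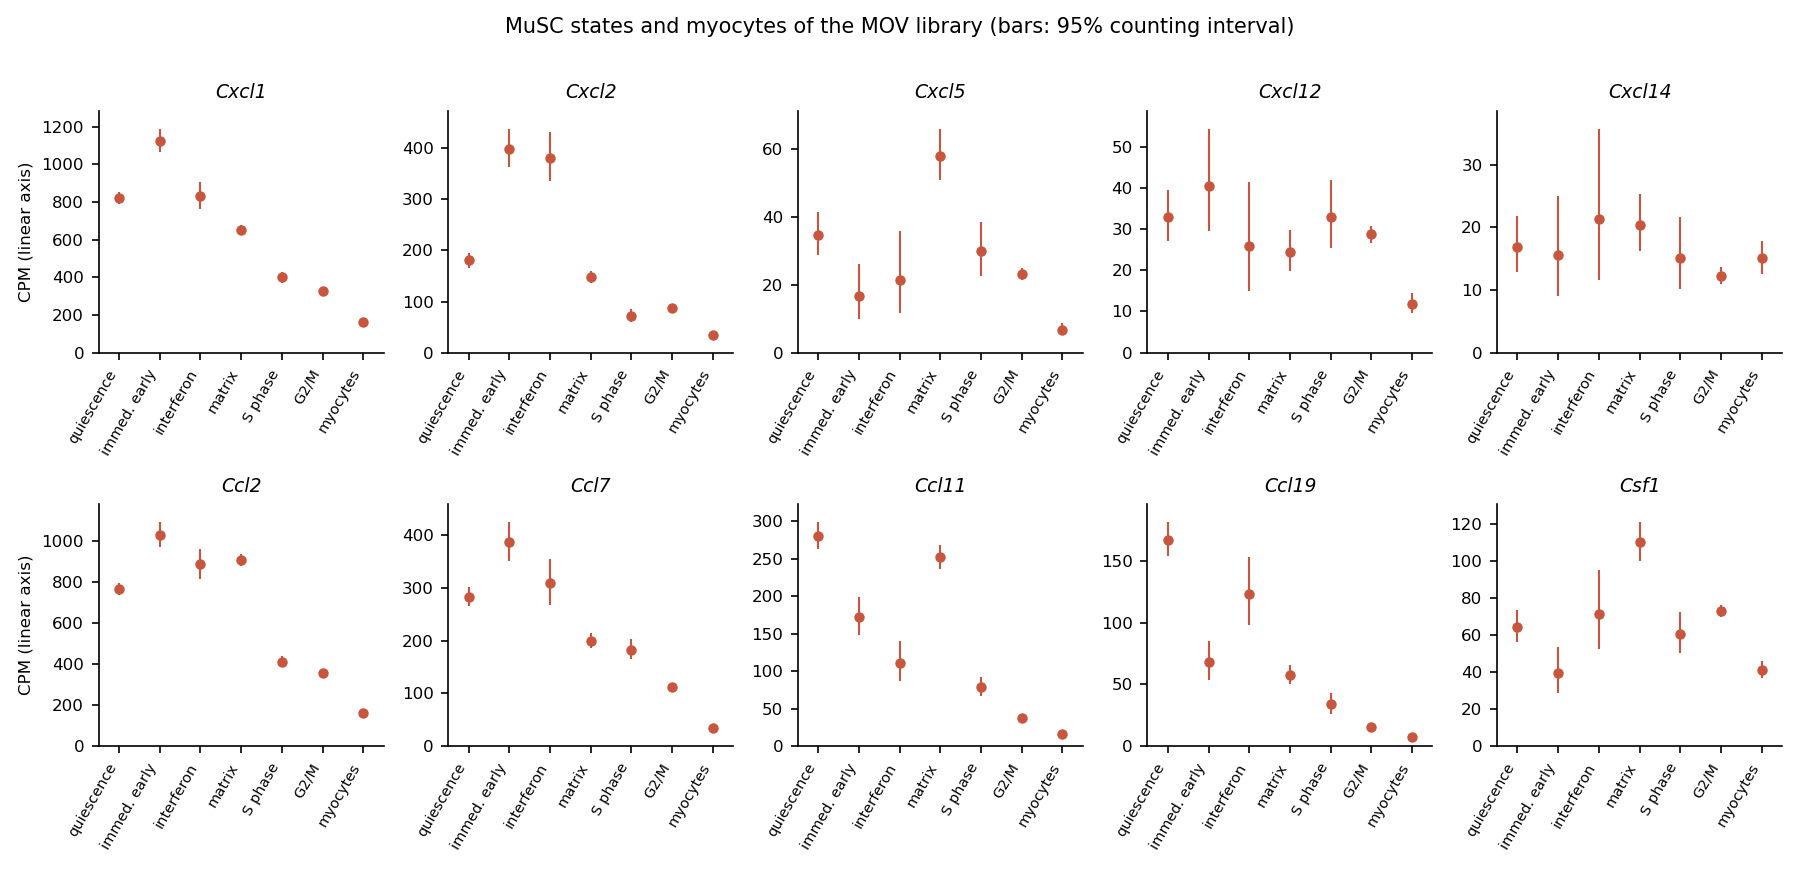
Level in CPM (linear axes, which differ between panels) of each gene in the MOV MuSC states and myocytes, with 95% Poisson intervals. Ccl19 is highest in quiescence-marker cells at 167 CPM and stands at 15.5 CPM in G2/M cells. Csf1 is highest, of the groups shown, in the matrix state (110 CPM). The remaining MuSCs, which are not shown, held Csf1 at 105 CPM with an overlapping interval.

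Because tissue dissociation induces immediate-early genes, the members were also read along that measure in MuSCs outside the cycle, by UMIs of the immediate-early genes per 10000. In MOV, Cxcl1 stood at 304, 740 and 1095 CPM in cells with under 10, with 10 to 50 and with 50 or more. In sham the same limits gave 1024, 2981 and 3892 CPM. At matched ranges the sham level was therefore above the MOV level in each, while 18 of 104 sham cells and 205 of 766 MOV cells were in the lowest range. Ccl2 stood at 389, 819 and 1008 CPM in MOV and 405, 830 and 1231 CPM in sham, so the 2 libraries lay close together at matched ranges. Ccl19 in sham went from 153 to 423 and 768 CPM, and in MOV from 39.4 to 92.6 and 67.7 CPM. Csf1 did not follow, with 89.5, 97.9 and 40.1 CPM in MOV. The part of dissociation in these levels was not tested.

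Myocytes, the cells that had begun to differentiate, had lower levels than MuSCs. In MOV 8 members were counted as lower, where 10.4% of 13297 genes were, and 0 as higher, where 6.53% were, with medians of -1.67 and -0.11. Ccl11 stood at 15.6 against 87.1 CPM (-2.48), Ccl19 at 7.76 against 36.4 CPM (-2.23), Ccl7 at 35.2 against 151 CPM (-2.10) and Cxcl5 at 6.70 against 28.1 CPM (-2.07). Cxcl2 (-1.75), Ccl2 (-1.58), Cxcl1 (-1.42) and Cxcl12 (-1.41) were lower as well, and Csf1 (-0.93) and Cxcl14 (0.09) were within 2-fold. Cxcl1 and Ccl2 of myocytes stood at 163 and 159 CPM, with 1387 and 1355 UMIs in 187 cells, and those of Schwann cells at 125 and 118 CPM, with 75 and 71 UMIs in 70 cells of lower depth (median 7609 against 40641 UMIs). When cells were assigned by single genes, with Myog alone for myocytes, 2 members were counted as lower.

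Myeloid cells in MOV, recognised by markers such as Lyz2 (8077 CPM), were compared with MOV MuSCs. In them 4 members were counted as higher, where 17.7% of 13204 genes were, and 3 as lower, where 22.5% were, with medians of 0.34 and -0.44. The higher ones were Cxcl2 (5.66, 5.60 to 5.71), Ccl7 (3.47), Cxcl14 (1.68, from 37 UMIs) and Ccl2 (1.62). Ccl19 (-4.89, from 1 UMI), Ccl11 (-4.15, from 4) and Csf1 (-1.29, from 26) were lower. Those of Cxcl14 and Csf1 were lost under 3 and 4 of 17 other settings. The part of free RNA in the Cxcl14 of myeloid cells was not tested. The myeloid cells passed a sort meant to leave out CD45-positive cells, and Ptprc, which encodes CD45, stood at 310 CPM in them.

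The receptors of these ligands were read in the same groups. Cxcr4, the receptor of CXCL12, stood at 61.4 CPM in sham MuSCs (82 UMIs) and 34.2 CPM in MOV MuSCs, with 61.5 CPM in MOV quiescence-marker cells, 25.6 CPM in cycling cells, 1.46 CPM in Pdgfra cells and 137 CPM in MOV myeloid cells. Ackr3, the clearing receptor for CXCL12, stood at 231 CPM in sham and 51.0 CPM in MOV MuSCs, and at 312 and 126 CPM in Pdgfra cells. It was thus above Cxcr4 in the MuSCs of both libraries. Its log2 ratio of MOV over sham was -1.74 in quiescence-marker MuSCs and -1.31 in Pdgfra cells. In MOV myeloid cells Csf1r stood at 439 CPM, Ccr1 at 206 CPM, Ccr2 at 114 CPM and Ccr7 at 25.8 CPM. Cxcr2, the receptor of CXCL1, CXCL2 and CXCL5, had 0 UMIs in these 78 cells, which allows up to 4.54 CPM, and 6 UMIs in 1463 MuSCs. Cells recognised only by neutrophil markers were left unassigned and are not part of the myeloid group, so Cxcr2 in them was not read here. Of 17 receptor genes, 5 had 20 UMIs in the comparison of MOV Pdgfra cells with MuSCs, of which 3 were higher in Pdgfra cells and 1 (Cxcr4, -4.55) lower, with a list median of 1.30, beside 18.9% and 15.7% of all genes tested. Against MuSCs, the myeloid cells had 7 receptors higher and 1 (Ackr3) lower of 8 with enough UMIs, with a median of 9.14, beside 17.7% of all genes higher and 22.5% lower.

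The other chemokine genes and the NF-kB genes were counted in the same way, and the shares of all genes were 18.9% higher and 15.7% lower for MOV Pdgfra cells against MuSCs, 19.6% and 6.55% between the libraries in quiescence-marker MuSCs, and 11.5% and 16.3% in Pdgfra cells. In MOV, 9 of 17 other chemokine genes with enough UMIs, from a list of 28, were higher in Pdgfra cells than in MuSCs and 0 lower, with a median of 1.21 over the list, among them the interferon-induced T cell attractant Cxcl9 (274 against 8.13 CPM, 5.08), the B cell attractant Cxcl13 (67.5 against 2.11 CPM, 5.00) and Ccl8 (111 against 4.11 CPM, 4.75). Cxcl13 was almost absent from Lrrc15 fibroblasts, with 4 UMIs against 1017 in the other Pdgfra cells. Of 15 NF-kB target and feedback genes, 8 were higher and 0 lower in MOV Pdgfra cells than in MuSCs (median 1.31), including Ptgs2, the inducible prostaglandin synthase (379 against 2.95 CPM), and Il6 (108 against 4.58 CPM, 4.57). Between the libraries, quiescence-marker MuSCs had 4 of 7 other chemokine genes lower in MOV and 0 higher (median -1.26). These were Ccl8 (-2.80), Cx3cl1 (-1.80), Cxcl3 (-1.58), which is a further CXCR2 ligand, and Cxcl10 (-1.26). Of 14 NF-kB genes there (median -0.49), Nfkb1 (249 against 563 CPM, -1.18) and Zfp36 (-1.11), which destabilises cytokine transcripts, were lower, and Tnfaip3 (1.93, from 6 sham UMIs) was higher. In Pdgfra cells 6 of 16 other chemokine genes were higher in MOV and 0 lower (median -0.12), with Cxcl3 (4.49, from 1 sham UMI) and Cxcl13 (2.52, from 4) among them. Of 15 NF-kB genes there 1 was higher, a smaller share than the 11.5% of all genes, and 5 were lower (median -0.63), of which Icam1 (57.5 against 250 CPM, -2.12) and Zfp36 (311 against 996 CPM, -1.68) differed most.

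Partners that hold or cleave chemokines also divided between the groups. Sdc4, a heparan sulphate proteoglycan of the MuSC surface, stood at 980 CPM in MOV MuSCs and 133 CPM in MOV Pdgfra cells (-2.88), and at 1884 CPM in quiescence-marker cells. Tnfaip6, whose product binds chemokines and matrix, was at 1114 CPM in MOV Pdgfra cells and 49.9 CPM in MuSCs (4.48). Dpp4, a protease that inactivates CXCL12, was at 26.5 CPM in Pdgfra cells with 1 UMI in 1463 MuSCs. Of 8 such genes 7 had enough UMIs, and 4 were higher and 1 lower in Pdgfra cells (median 1.23), beside 18.9% and 15.7% of all genes. Of 3 further myeloid growth factor genes 2 had enough UMIs in that comparison, and Csf2 was higher in Pdgfra cells (68 UMIs against 3 in MuSCs). Myeloid cells carried their own set, with Pf4 at 2478 CPM, Ccl4 at 1324 CPM and Ccl6 at 1302 CPM, and 11 of 17 other chemokine genes were higher in them than in MuSCs and 3 lower (median 5.38), beside 17.7% and 22.5% of all genes.

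**Figure D4:**
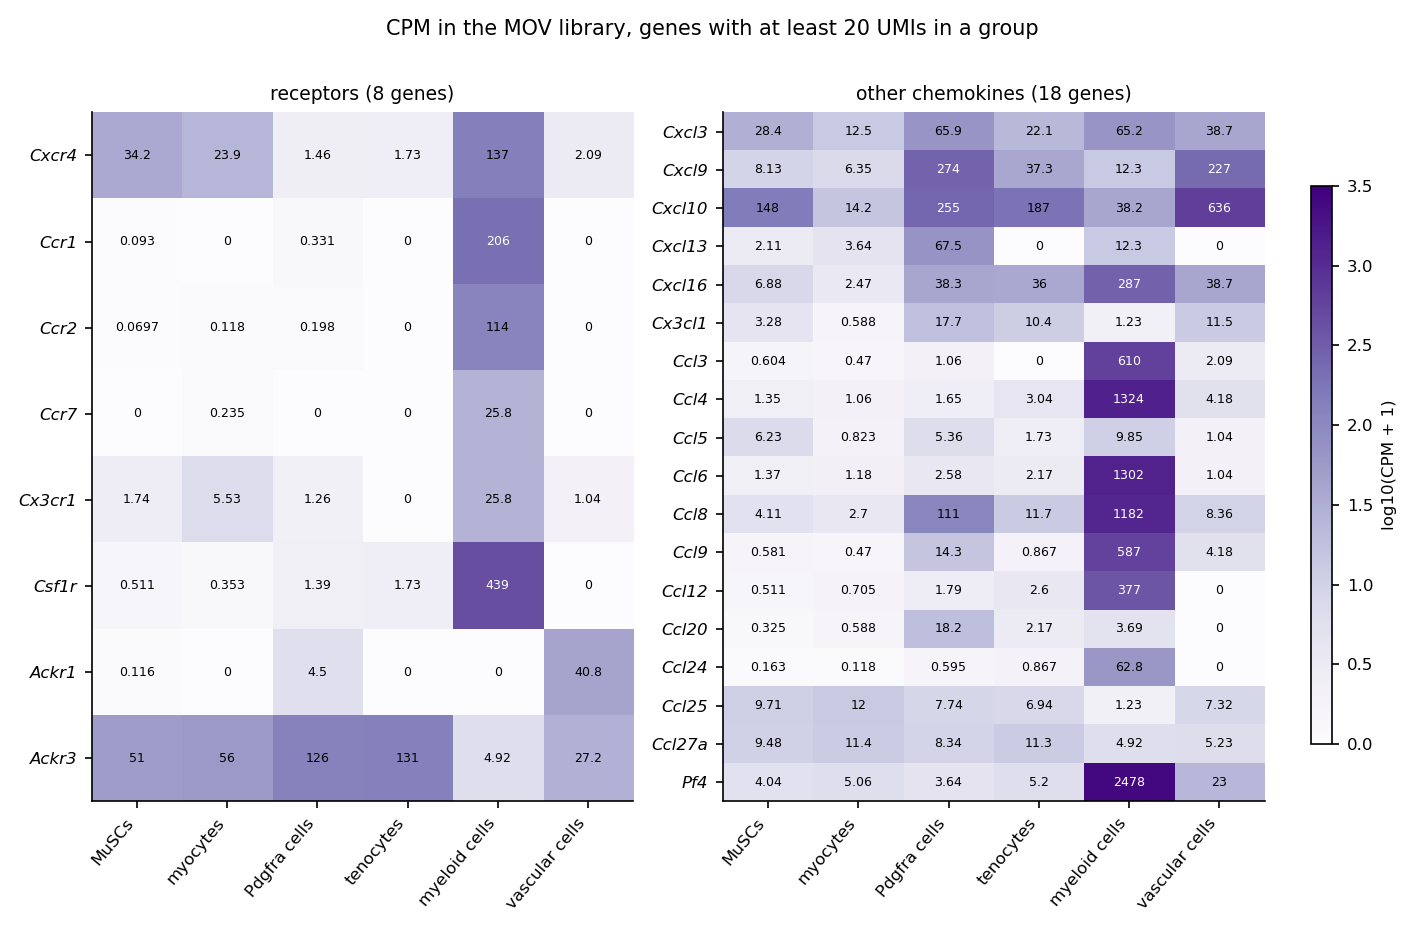
Level of 8 receptor and 18 other chemokine genes in the MOV groups, as log10 of CPM + 1, chosen from genes with at least 20 UMIs in a group. Csf1r and the Ccr genes are darkest, and so highest, in myeloid cells (Csf1r at 439 CPM), and Cxcr4 appears in MuSCs at 34.2 CPM and myeloid cells at 137 CPM.

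Levels of different members were also set side by side within the same cells. Of the MOV Pdgfra cells 390 held a UMI of Cxcl1, and their Cxcl2 level was 449 CPM against 14.3 CPM in the 21 cells without (log2 ratio 4.98). Cells with Ccl7 held Cxcl5 at 383 CPM against 11.1 CPM in the 32 cells without, and Ccl2 at 2672 against 227 CPM. In MOV MuSCs, the 579 cells with a UMI of Ccl19 held Ccl11 at 194 CPM and the 884 without at 40.3 CPM (2.26), though the cells with Ccl19 were the shallower ones (median 18554 against 26129 UMIs). In sham MuSCs the 22 cells with a UMI of Cxcl2 held Cxcl1 at 6414 CPM against 899 CPM in the 91 cells without, and Ccl11 at 8.31 against 196 CPM. Pdgfra cells with Cxcl1 were deeper than those without, at a median of 36877.5 against 22743 UMIs, and the part of depth in these splits was not tested.

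Likeness across 18 profiles, the groups of each library with at least 20 cells, was described with Pearson's r of log2(CPM + 1) over 11320 genes. No cell is in more than one profile, but profiles share libraries, so r is a description with no test. Ccl2 and Ccl7 were each other's closest gene (r = 0.956). Cxcl1 was closest to Ier5 (0.946), Nfkb1 (0.945) and Gem (0.944), Cxcl2 to Arpc3 (0.921), Blvrb (0.888) and Slc31a1 (0.882), and Cxcl5 to Csgalnact1 (0.926), Pcdh19 (0.912) and Col6a2 (0.898). For Cxcl12 the closest genes were Grk5 (0.944) and Tfpi (0.943), and for Cxcl14 they were Arsi (0.940), Rassf8 (0.934) and Adgrd1 (0.932). Ccl11 was closest to Gstt1 (0.944), Ntn4 (0.936) and Mturn (0.927), Ccl19 to Rgs4 (0.907), Tcaf2 (0.896) and Ntf3 (0.896), and Csf1 to Man2a1 (0.962), Epb41l2 (0.961) and Itpripl2 (0.953). After Ccl2, the genes closest to Ccl7 were Ly6e (0.927) and Nfkbiz (0.914), and those closest to Ccl2 after Ccl7 were Ifitm2 (0.947) and Anxa3 (0.947). Among the members themselves, Cxcl1 and Ccl2 were next at 0.938, and Cxcl14 and Ccl19 were least alike at -0.10.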

How the data were processed

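The deposited files hold UMI counts per gene and cell for 1 sham and 1 MOV library, which the authors made with Cell Ranger 6.0.0 on mm10. The submitters' processing notes also name R 4.0.2 and Seurat 4.0.2. Cells with over 10% mitochondrial UMIs were left out. Groups needed at least 3 marker UMIs from at least 2 markers and a minimum density of marker UMIs (3 per 10000 UMIs for MuSCs, 8 for Pdgfra, myocyte and myeloid cells, 12 for tenocytes). Cells with markers of more than one lineage were left out, and no doublet caller was run. UMIs were summed per group (Python 3.11.15, numpy 2.4.6, scipy 1.17.1, pandas 2.3.3) and given as counts per 1e6 UMIs (CPM) with exact Poisson intervals. Ratios carry exact conditional binomial intervals. A call needed a 2-fold difference and 20 UMIs, and a group at 0 was set to 3 UMIs. Intervals cover counting error only. The ratio, its interval and the 2-fold cut were tested on simulated counts, for MOV over sham in all MuSCs and in Pdgfra cells. The other calculations were not tested in this way. Other scaling, by the TMM method (edgeR 4.0.16) or by median-of-ratios factors (from DESeq2 1.42.0), a change of the filters, gates and depth, and leaving out shared barcodes were tried as alternatives. Named genes were the 10 members, genes of the pathway lists with at least 20 UMIs in a group, and for each member the 3 genes with the highest Pearson correlation. Cxcr2 was named outside this rule, with its values seen, as the receptor of 3 members. The members and lists were chosen with earlier results of these data known. Positions are from GENCODE M21. A few results that the naming rule would give are not reported here.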

Additional observations from a re-analysis of the deposited data

Results flagged for a closer look

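The MOV over sham log2 ratio had opposite signs in MuSCs and Pdgfra cells for 7 genes, and for 5 of them both counting intervals left out 0. The other two were Ccl7 (-0.12 and 0.72) and Cxcl12 (1.01 and -0.05). The difference was not tested, since each condition had 1 library. For Cxcl2 the ratio was -1.49 in MuSCs and 2.89 in Pdgfra cells, a difference of 4.38, with 20 sham UMIs in Pdgfra cells. For Cxcl5 the ratios were -0.58 and 2.14, a difference of 2.72. For Ccl2 they were -0.20 and 1.74, a difference of 1.95. The MuSC ratios of Cxcl5 and Ccl2 each had the other sign under 2 of 17 other settings. In quiescence-marker MuSCs Ccl2 stood at 0.37, the same sign as in Pdgfra cells. For Ccl19 the ratios were -2.94 and 2.25, a difference of 5.19, with 2 sham UMIs in Pdgfra cells. Without the barcodes found in both libraries Ccl19 in Pdgfra cells stood at 1.81 (-0.05 to 4.86). For Cxcl14 the ratios were 1.44 and -0.46, a difference of -1.90, with 7 sham UMIs in MuSCs. The Pdgfra ratio of Cxcl14 had the other sign under 2 of 17 other settings.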

How the results depend on the processing

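Each count of members past 2-fold was recomputed under 17 other settings, of which leaving out shared barcodes and leaving out immediate-early-high cells were chosen after seeing the data. Of these counts 345 stayed within 1.5 times the reported one and 27 did not, and the cause was not tested. For MOV over sham in all MuSCs, members higher went from 3 to 1 with TMM and with median-of-ratios factors, and members lower from 3 to 5 without either copy of shared barcodes. In quiescence-marker MuSCs, members higher went from 2 to 1 with a mitochondrial limit of 5% or with thinning to 2000 UMIs and to 5 without the top cell, and members lower from 3 to 1 with the marker minimum doubled. In Pdgfra cells, members higher went from 4 to 2 with thinning, and members lower from 1 to 2 with thinning, as a mean over cells, without the deepest 5% of cells or without shared barcodes. For Pdgfra cells over MuSCs, thinning gave 3 in place of 5 higher in sham and 1 in place of 0 lower in MOV, and a mitochondrial limit of 20% or none gave 1 in place of 2 lower in sham. For immediate-early-high cells, members higher went from 1 to 0 with TMM factors, the doubled marker minimum, single-gene gates or the top cell left out, and members lower from 2 to 0 as a mean over cells and to 1 with thinning or without the top cell. For the matrix state, members higher went from 0 to 1 with thinning or as a mean over cells, and members lower from 1 to 2 with the marker minimum doubled. For myocytes, members lower went from 8 to 2 with single-gene gates. Of 59 single ratios past 2-fold, 34 were past it under every setting. Those of Cxcl1 (-2.54 to -1.67), Cxcl2 (-1.90 to -1.16) and Ccl19 (-3.35 to -2.37) in all MuSCs were among them. Of the ratios past 2-fold, the reversed ones were Cxcl5 in myocytes over MuSCs, at 0.46 with single-gene gates, and Csf1 in myeloid cells over MuSCs, at 0.64 with single-gene gates and 0.98 as a mean over cells. Ratios under 2-fold were not counted as reversed, though several also changed sign. For MOV over sham in all MuSCs these were Cxcl5 and Ccl2 under 2 settings each and Ccl7 under 3. In Pdgfra cells they were Cxcl12 under 8 settings and Cxcl14 and Ccl7 under 2 each. Between the libraries, TMM factors moved every log2 ratio by 0.28 in Pdgfra cells and -0.08 in all MuSCs, and median-of-ratios factors by 0.09 and -0.12. Depth limits the sham values of Cxcl12, Cxcl14 and Csf1 in MuSCs and of Cxcl2, Cxcl5 and Ccl19 in Pdgfra cells. No paired analysis was possible because each condition had 1 library.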
